A study of Arabidopsis thaliana with 27 samples.

Results

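The ERF, DREB and CBF genes are the larger branch of the AP2/ERF family of plant transcription factors. They were taken here as the protein-coding genes of Arabidopsis thaliana whose symbol starts with ERF, DREB, CBF, CRF or RAP2 followed by a digit, a letter with a digit, or a dot. The rule gave 52 genes of 27444 protein-coding genes on the 5 nuclear chromosomes, after 3 genes with a matching symbol (ERF1-1, ERF1-2 and ERF1-3) had been left out because they encode eukaryotic release factors. Roles were assigned from lists of symbols. There were 4 CBF/DREB1 genes, 3 genes with a DREB2 symbol, 12 cytokinin response factors (CRF) and 8 ERF genes with an EAR repression motif. Another 8 were activators of group IX, 4 belonged to the oxygen-sensing group VII and 3 to group X. The remaining 10, DREB19 among them, were on none of these lists. RAP2.7, also known as TOE1, met the symbol rule although it belongs to the AP2 branch of the family. ERF-1 (ERF1A), spelled with a hyphen, fell outside the rule.

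The proteins of this family bind DNA through an AP2/ERF domain. ERF proteins recognise the GCC box of ethylene-responsive and defence genes, and DREB and CBF proteins recognise the dehydration-responsive element of cold-responsive and drought-responsive genes. Many of the genes are silent or weakly expressed in unstressed seedlings and are switched on within minutes to hours by ethylene, jasmonate, cold, drought or low oxygen. Trimethylation of lysine 27 of histone H3 (H3K27me3) is set by Polycomb group proteins at silent genes. REF6 is a Jumonji-domain enzyme that removes this mark, and BRM (BRAHMA) is an ATPase, the motor subunit of SWI/SNF complexes that move or evict nucleosomes.

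Chromatin immunoprecipitation was done on 14-day-old whole seedlings. REF6-GFP was mapped in the brm-1 mutant and in wild type with 2 libraries each, and BRM-GFP in the ref6-1 mutant with 2 libraries and in wild type with 1. In addition, there was 1 REF6-GFP and 1 BRM-GFP library without a stated genetic background, referred to as the first lists. H3K27me3 was mapped in ref6-1, brm-1, the brm-1 ref6-1 double mutant and WT with 2 libraries each, and the mutants are written ref6, brm and brm ref6 from here on. The label of 1 BRM-GFP library in ref6 gives ProBRM, the promoter of BRM itself, as the driver of the fusion. For the other GFP libraries the promoter is not given in the sources used here. Replicates are not labelled as coming from separate plantings, so the p-values reflect only how these samples vary, which may be technical.

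Each of the 17 libraries is represented by its peak list alone, and how deeply it was sequenced is not known. There were 12230 peaks in the first BRM-GFP list and 5413 in the first REF6-GFP list, against 1466 to 2564 peaks in the later BRM-GFP lists and 2209 to 4006 in the later REF6-GFP lists. Among the H3K27me3 lists, ref6 replicate 2 stood apart with 5582 peaks of a median width of 1575 bp, where the medians of the other lists lay between 289 and 527 bp. It covered 11.5 Mb of the genome, and ref6 replicate 1 covered 5.31 Mb. The brm lists covered 10.9 and 10.3 Mb, the brm ref6 lists 9.83 and 7.28 Mb and the WT lists 7.81 and 6.99 Mb. As a check, 8 genes were chosen that were expected to carry H3K27me3 in seedlings, most of them genes of flowers and seeds. Of these, 7 had at least 50% of the body under H3K27me3 in both WT libraries (LEC1, with 31.2% and 16.7%, did not). By contrast, 0 of 7 genes of every cell or of green tissue had any coverage in any of the 8 lists. The lists hold no reads, so reads over the mutated genes could not be used to check the genotype labels. At the REF6 gene itself, BRM-GFP had a score of 883 in wild type and no peak in either ref6 library. The BRM gene had no REF6-GFP peak in any list. These differences were not tested.

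BRM-GFP was found at most ERF, DREB and CBF genes in the first lists. A gene counted as occupied when at least 1 bp of a peak fell within the gene body or within 1000 bp of either end. A BRM-GFP peak lay at 43 of the 52 genes (82.7%), against 44.1% of all protein-coding genes. A REF6-GFP peak lay at 24 of the 52 (46.2%), against 30.1% of all protein-coding genes. Both proteins were listed at 23 genes (44.2%), against 16.9%, and neither at 8 (15.4%), against 42.7%. These genes were short, with a median body of 1326 bp against 2078 bp for all genes. Among the 17750 genes within their length range (736 to 2969 bp) the background was 44.1% for BRM-GFP, 30.9% for REF6-GFP, 17.2% for both and 42.2% for neither. Each first list is 1 library, so these shares carry no test.

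**Figure D1:**
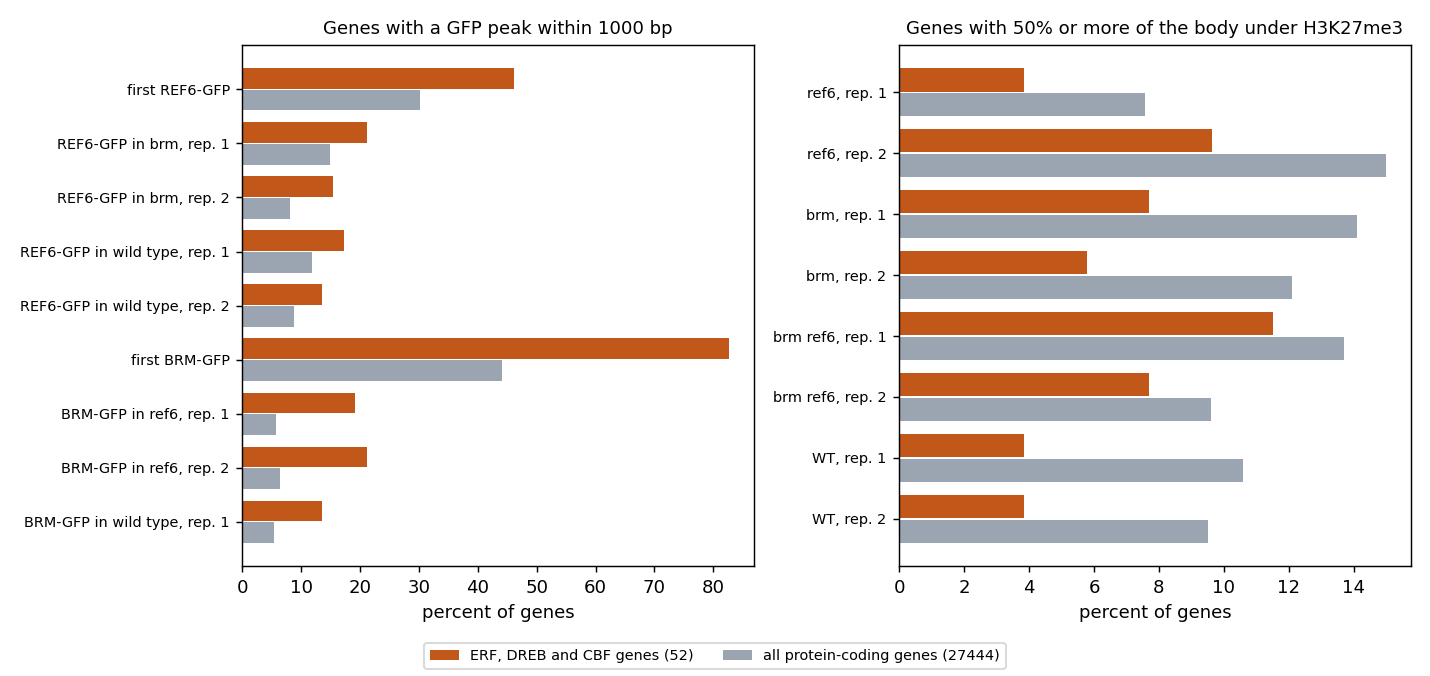
Percent of genes with a GFP peak within 1000 bp in each of the 9 GFP lists (left) and with at least 50% of the body under H3K27me3 in each of the 8 H3K27me3 lists (right), for the 52 ERF, DREB and CBF genes (upper bar of each pair) and all 27444 protein-coding genes (lower bar); each bar is 1 library and has no error. The 52 genes stood above the background in all 9 GFP lists, by the most percentage points in the first BRM-GFP list (82.7% against 44.1%), and below it in all 8 H3K27me3 lists.

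Where both proteins were listed at an ERF, DREB or CBF gene, their peaks usually lay on the same stretch of DNA. A REF6-GFP peak overlapped a BRM-GFP peak at 20 of the 23 shared genes (87.0%), against 70.8% of the 4650 protein-coding genes with both. The 3 exceptions were ERF71, CRF1 and ERF9. This count takes any pair of peaks at a gene. The highest peaks, whose scores are given below, also lay apart at ERF8, DREB19 and ERF104. A peak reached the gene body at 41 of the 43 genes with BRM-GFP (95.3%, against 75.8% of all genes with a peak) and at 22 of the 24 with REF6-GFP (91.7%, against 75.4%). In each of the 7 later lists, 1 to 4 of the 7 to 11 genes with a peak had it beside the body alone, with 4 of 10 in BRM-GFP ref6 replicate 1. Of all protein-coding genes with a peak in these lists, 61.9% to 69.2% had one on the body. In BRM-GFP ref6 replicate 1 this share was 65.3%. Of the 24 genes with REF6-GFP, only ERF110 lacked BRM-GFP.

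The 5 highest BRM-GFP scores of the family lay at ERF4, RAP2.4, ERF104, ERF2 and ERF5. A score is the authors' value for a peak, −10 times the base-10 logarithm of its p-value with a minimum of 50, and it ranks peaks within a list. ERF4 (AT3G15210), an EAR-motif repressor of ethylene and jasmonate responses, had a score of 2747 in the first BRM-GFP list, rank 20 of 12230 peaks. RAP2.4, a DREB-type regulator of light and drought responses, followed with 2743 (rank 22). ERF104, which takes part in the response to bacterial flagellin, had 1624 (rank 134), and the activators ERF2 and ERF5 had 1339 (rank 219) and 1323 (rank 229). All 8 EAR-motif repressors carried BRM-GFP, with scores between 219 and 2747, and 3 of them carried REF6-GFP.

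REF6-GFP had another order. ERF1 (AT3G23240), which acts below EIN3 in the ethylene pathway and joins ethylene and jasmonate signals at defence genes, had a REF6-GFP score of 3217 in the first list. It was among 276 peaks of that list with a score of 3100 or more. Its BRM-GFP score was 83.6. ERF53, a drought-responsive DREB-type gene, had a REF6-GFP score of 2340 and a BRM-GFP score of 113. ERF71 (HRE2), a group VII gene of the low-oxygen response, had 1041 and 71.4, and the cytokinin response factors CRF6 and CRF5 had REF6-GFP scores of 845 and 811 with BRM-GFP scores of 1292 and 603. Thus of the 5 genes with the highest REF6-GFP score, ERF1, ERF53 and ERF71 stood in the lower part of the BRM-GFP list (ranks 9427, 7776 and 10355 of 12230), and none was among the 5 with the highest BRM-GFP score.

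**Figure D2:**
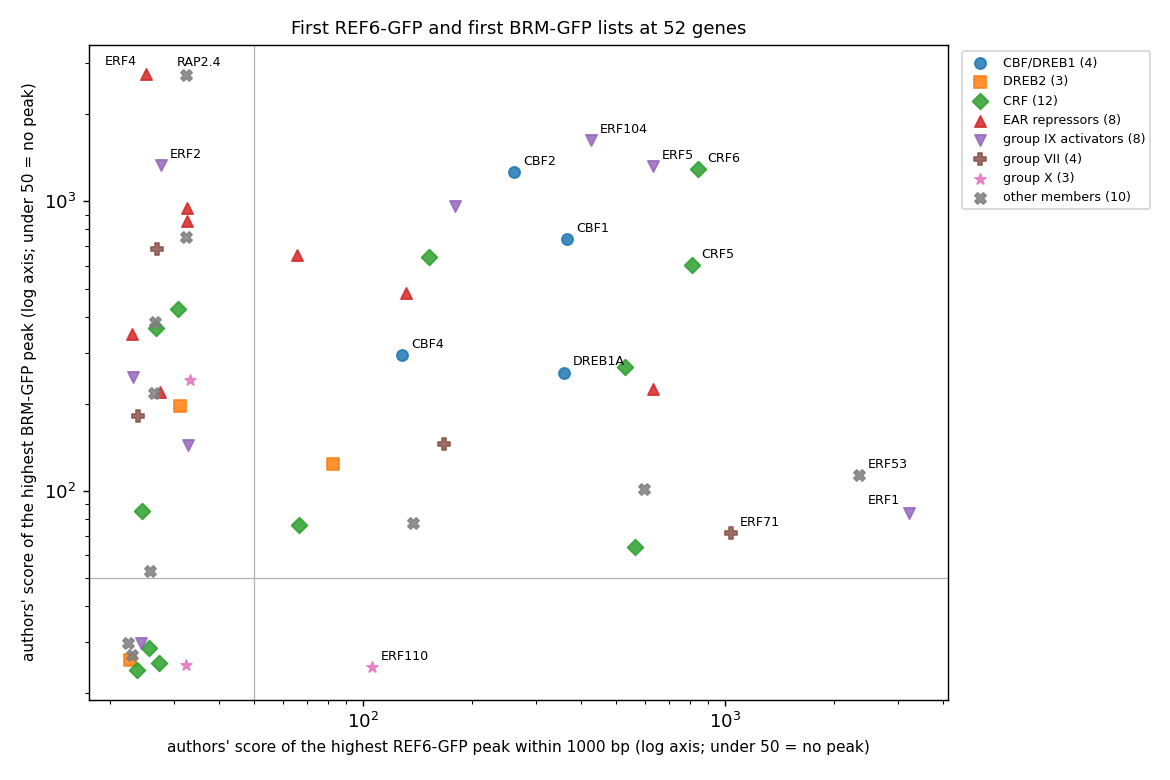
Authors' score of the highest peak within 1000 bp in the first REF6-GFP list (horizontal, log axis) and the first BRM-GFP list (vertical, log axis) for each of the 52 genes, with marker shape by role; points below 50 have no peak in that list and are spread slightly so that they can be told apart. ERF1 lay at 3217 for REF6-GFP and 83.6 for BRM-GFP, while ERF4 (2747) and RAP2.4 (2743) had BRM-GFP and no REF6-GFP peak.

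The first lists were also read by role, with no test between roles. All 4 CBF/DREB1 genes, the rapid activators of the cold and drought response, carried both. Of 12 cytokinin response factors, 9 carried BRM-GFP and 6 REF6-GFP. Of 8 group IX activators, 7 carried BRM-GFP and 4 REF6-GFP. The 4 group VII genes all carried BRM-GFP, and 2 of them (ERF71 and ERF73, the hypoxia-induced genes HRE2 and HRE1) also carried REF6-GFP. Of the 3 genes with a DREB2 symbol, DREB2A, a regulator of drought and heat responses, had BRM-GFP (197) and no REF6-GFP peak. DREB2C had both (124 and 82.8) and DREB2B had none. Of the 3 group X genes, 1 had BRM-GFP and 1 had REF6-GFP. Of the 10 genes on none of the role lists, 8 had BRM-GFP and 3 REF6-GFP. DREB19 was 1 of these and had both (102 and 597). The 8 genes with no peak in the first lists were CRF7, CRF9, CRF12, DREB2B, ERF14, RAP2.1, RAP2.6 and RAP2.11. They had no peak in any of the 9 GFP lists, which was the case for 40.8% of all protein-coding genes.

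The REF6-GFP lists of brm and wild type address whether REF6 depends on BRM to occupy its targets. REF6-GFP was listed at 11 and 8 of the 52 genes in brm (21.2% and 15.4%, against 14.8% and 8.14% of all protein-coding genes) and at 9 and 7 in wild type (17.3% and 13.5%, against 11.9% and 8.84%). Kept in all 4 lists were 5 genes (CRF5, ERF1, ERF53, ERF71 and ERF9), which is 9.62% against a background of 5.38%. The same 5 were also in the first list. ERF1 had scores of 1324 and 369 in brm, against 1039 and 376 in wild type. ERF53 had 533 and 206 in brm, against 615 and 154 in wild type. ERF9, an EAR-motif repressor that restrains defence genes, had 581 and 72.6 in brm, against 250.0 and 104 in wild type. In each of these 3 the score of replicate 1 was above that of replicate 2 in both genotypes, and the ranges of the genotypes overlapped. ERF71 had 426 and 62.1 in brm, against 118 and 64.4 in wild type, and CRF5 had 234 and 158 in brm, against 83.8 and 106 in wild type. CRF5 was the gene of the 5 whose scores did not overlap between the genotypes, and scores of different lists were not tested against each other.

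No ERF, DREB or CBF gene lost REF6-GFP in brm, meaning listed in both wild-type libraries and in neither brm library (0 of 52, background 0.0984%). CBF2 gained it by the reverse rule (1 of 52, background 0.317%), with scores of 75.0 and 70.3 in brm and no peak in wild type. The scores lay near the minimum of 50, and the first list had a REF6-GFP peak at CBF2 with a score of 262. The counts depended on single libraries: 3 genes were lost without wild-type replicate 2, and 4 were gained without brm replicate 2 and 2 without wild-type replicate 1. With 2 libraries against 2 an exact permutation test cannot give a p below 0.333, so presence was described and not tested.

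BRM-GFP was compared between ref6 and wild type to ask whether BRM needs REF6. It was listed at 10 and 11 of the 52 genes in ref6 (19.2% and 21.2%, against 5.79% and 6.3% of all protein-coding genes) and at 7 in the wild-type library (13.5%, against 5.43%). ERF4 and ERF2 kept it in all 3 lists (2 of 52, background 2.13%). ERF4 had scores of 218 and 254 in ref6, against 68.9 in wild type, and ERF2 had 65.8 and 133 in ref6, against 105 in wild type. These scores belong to the highest peak of each list, which was not always at the same site. At ERF4 the wild-type peak (chr3:5121965-5122137) overlapped neither ref6 peak (chr3:5121326-5121828 and chr3:5121295-5121785). At ERF2 the wild-type peak overlapped that of ref6 replicate 1 and not that of ref6 replicate 2. Neither gene had a REF6-GFP peak in any list. Gained in both ref6 lists were the EAR-motif repressors ERF3 (69.9 and 112) and ERF7 (88.6 and 63.6) and the DREB-type gene RAP2.10 (107 and 131), 3 of 52 with a background of 1.22%. At ERF3 and RAP2.10 the highest peaks of both ref6 lists overlapped. At ERF7 they lay apart (chr3:7086678-7086960 in replicate 1 and chr3:7087397-7087597 in replicate 2), and no peak of replicate 2 reached the body. All 3 had BRM-GFP in the first list, with scores between 384 and 950.4.

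Lost in ref6 were CRF3 (58.9 in wild type) and ERF15 (56.0 in wild type), 2 of 52 with a background of 2.23%. Both wild-type scores lay near the minimum of 50. Without ref6 replicate 1 the counts were 5 kept and 6 gained, and without ref6 replicate 2 they were 8 gained and 5 lost. Wild type had 1 BRM-GFP library in this comparison, so these differences could not be checked against a repeat of wild type.

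Of the 52 genes, 38 (73.1%) had no part of the body under an H3K27me3 peak in any of the 8 lists. The share over all protein-coding genes was also 73.1%, so by this count the family did not differ from them. Within single lists its shares mostly lay below the background, which was not matched for gene length here. A gene counted as marked when 50% or more of its body lay under peaks. Marked genes numbered 2 and 5 in ref6 (background 7.56% and 15%), 4 and 3 in brm (14.1% and 12.1%), 6 and 4 in brm ref6 (13.7% and 9.61%) and 2 and 2 in WT (10.6% and 9.5%). Each of these counts was a smaller share of the 52 genes (3.85% to 11.5%) than of all genes in the same list. Genes with any body coverage numbered 6 and 7 in ref6 (background 17.5% and 18.8%), 8 and 6 in brm (20.4% and 19.0%), 12 and 7 in brm ref6 (22.2% and 19.1%) and 3 and 4 in WT (17.3% and 16.8%). An H3K27me3 peak within 1000 bp was listed at 9 and 11 genes in ref6 (background 23.8% and 27.4%), 13 and 12 in brm (30.3% and 28.5%), 16 and 12 in brm ref6 (30.6% and 26.5%) and 12 and 8 in WT (25.1% and 24.2%). Only brm ref6 replicate 1 reached the background, with 23.1% for any coverage and 30.8% for a peak within 1000 bp. Whole seedlings were used, so fewer cells that carry the mark and less mark per cell cannot be told apart.

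The 2 genes marked in both WT libraries were ERF14 and ERF12. ERF14, a group IX activator of defence genes, was covered over 100% of its body in all 6 mutant libraries, against 100% and 89.8% in WT. It was also among the genes without any GFP peak. ERF12, an EAR-motif repressor, was covered over 42.9% and 83.4% in ref6, 70.5% and 64.5% in brm and 59.9% and 57.7% in brm ref6, against 54.2% and 66.4% in WT. Its WT range overlapped those of ref6 and brm and held both brm ref6 values, and no comparison passed limma's test (adjusted p from 0.792 to 1).

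**Figure D3:**
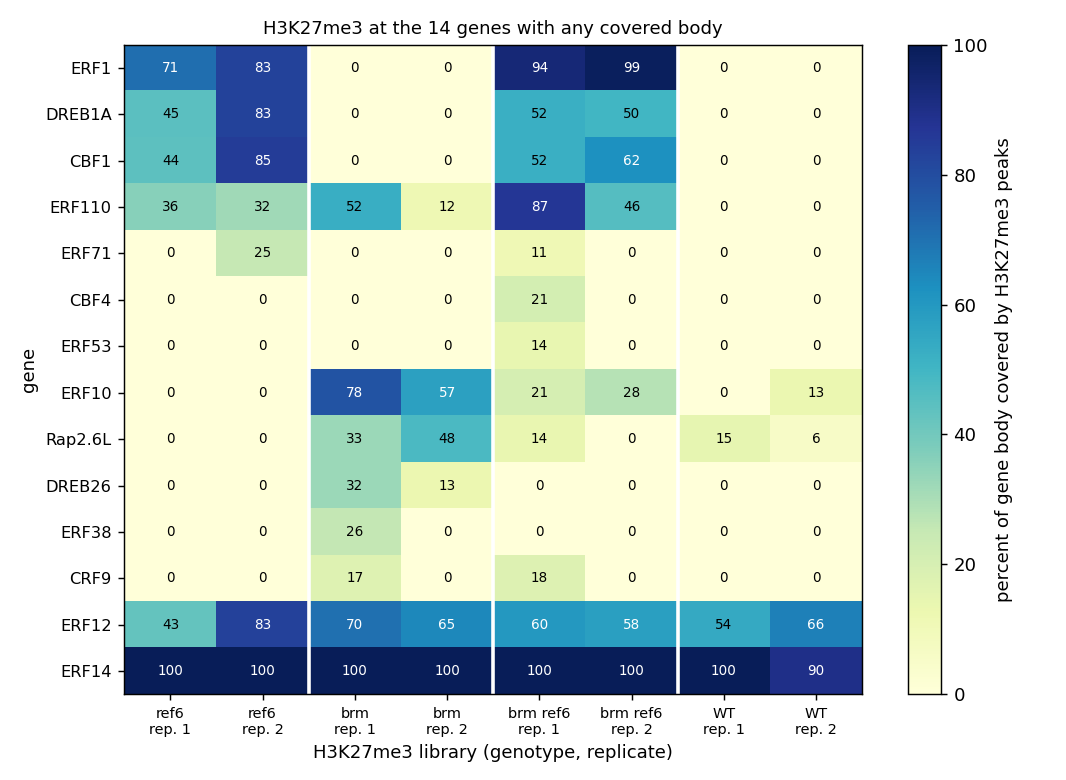
Percent of the gene body covered by H3K27me3 peaks in each of the 8 libraries (columns, by genotype and replicate) for the 14 genes of the family with any coverage (one line of cells each); the number in a cell is its value, rounded. ERF1, DREB1A and CBF1 were covered in ref6 and brm ref6 and in no brm or WT library, ERF10 was covered most in brm, and ERF14 was covered in every library.

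The ref6 and WT lists of H3K27me3 address where the mark appears once the demethylase is missing. ERF1 rose: peaks covered 71.0% and 83.0% of its body in ref6, against 0% in both WT libraries. The mean was 77.0% ± 8.5 in ref6 and 0% in WT (SD, n = 2 each). The fit with limma over all 8 libraries and 6263 genes gave a difference of 77.0 percentage points (SE 5.43) with a Benjamini-Hochberg adjusted p of 0.00497. The test needed a mean coverage of 5% over all 8 libraries. ERF1 had 0% in both WT and both brm libraries and reached this mean through ref6 and brm ref6 alone. The same held for DREB1A and CBF1. Values of 0% in WT and brm add no spread, so the SE rests on ref6, brm ref6 and the spread of other genes. Of the 9 family genes that reached the mean, ERF1 alone passed. Over all genes tested, 2.65% were higher and 0.671% lower. The call rested on both WT libraries: the adjusted p was 0.0683 without WT replicate 1 and 0.0594 without WT replicate 2, each leaving WT with a lone sample assumed to vary like the other genotypes, and 0.116 when only ref6 and WT entered the fit. Without ref6 replicate 2, the library of wide peaks, the difference was 71.0 points and the adjusted p 0.00358, with ref6 as the lone sample.

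At ERF1 the new mark covered the place where REF6-GFP lay. The first-list REF6-GFP peak ran over chr3:8295101-8296574 (TAIR10), across most of the gene body and the sequence on one side of it. The highest H3K27me3 peak at the gene ran over chr3:8295632-8296332 in ref6 replicate 1 and chr3:8294969-8296436 in ref6 replicate 2. In brm ref6 it ran over chr3:8295285-8296541 and chr3:8295443-8296591. No H3K27me3 peak lay within 1000 bp of ERF1 in brm or WT. The first-list BRM-GFP peak, at chr3:8295479-8295908, lay within the REF6-GFP peak, and the later BRM-GFP lists had none there.

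**Figure D4:**
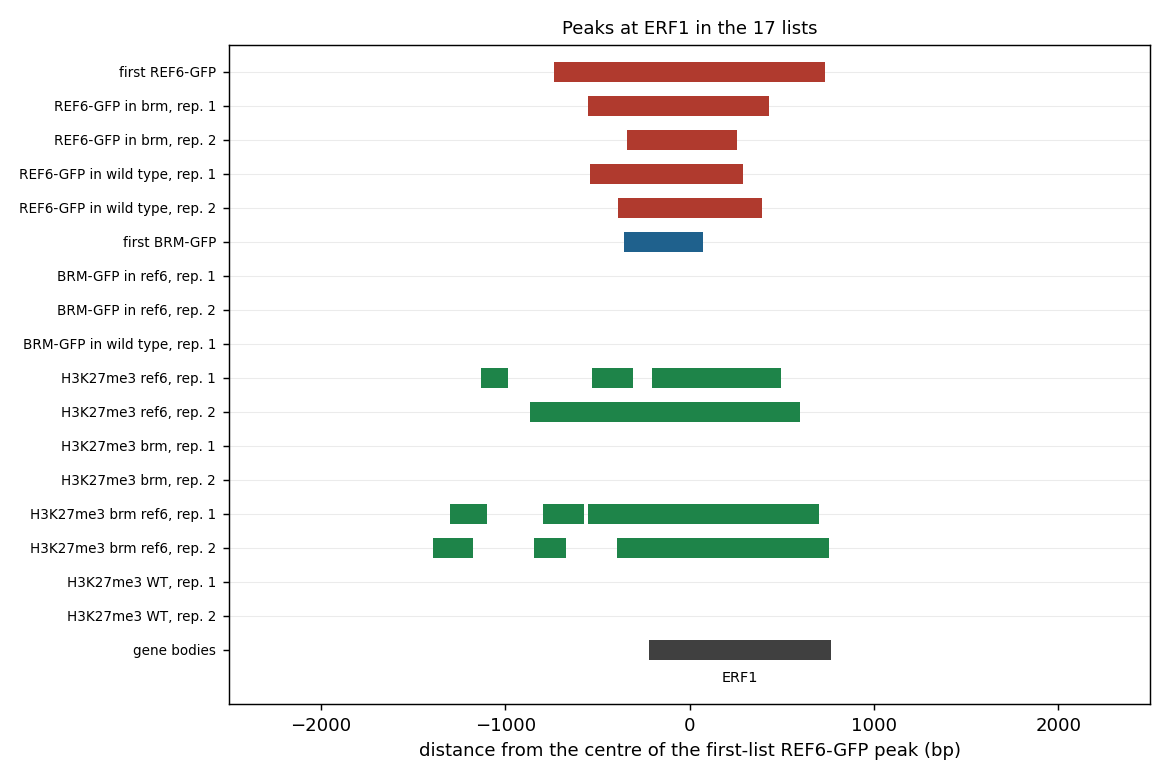
Peaks of the 17 lists around ERF1 (one line per library, REF6-GFP red, BRM-GFP blue, H3K27me3 green) and the gene body (dark), by distance in bp from the centre of the first-list REF6-GFP peak. H3K27me3 peaks appear in the 2 ref6 and the 2 brm ref6 libraries, over the REF6-GFP peaks, and in none of the brm and WT libraries.

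The cold-response genes DREB1A (CBF3, AT4G25480) and CBF1 (AT4G25490) had a pattern of the same kind with a wider spread. DREB1A was covered over 44.9% and 83.0% in ref6, against 0% in both WT libraries. CBF1 was covered over 44.3% and 85.0% in ref6, against 0% in both WT libraries. The groups did not overlap, but the ref6 replicates differed from each other by about as much as the lower one differed from WT. Limma gave 63.9 points for DREB1A (SE 12.5, adjusted p = 0.0728) and 64.7 points for CBF1 (SE 13.6, adjusted p = 0.0851), and neither passed. Across the alternatives the adjusted p ran from 0.000485 to 0.325 for DREB1A and from 0.00351 to 0.357 for CBF1. Both passed on the arcsine square root scale and without either ref6 library, where ref6 is a lone sample and its own spread does not enter the fit. They did not pass with the 2 genotypes alone, without either WT library, with a replicate block, with no filter, with a trended spread or with a score of at least 100.

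CBF2, DREB1A and CBF1 lie side by side on chromosome 4 and are copies of similar sequence. How reads that match more than 1 place were treated is not given in the sources used here, so their peaks may share reads. In this cluster, first-list REF6-GFP peaks lay on each gene (chr4:13015316-13016528, chr4:13018218-13019375 and chr4:13021772-13023037). In WT and in brm the cluster held a single H3K27me3 peak in each library, between DREB1A and CBF1 and off both bodies (chr4:13020008-13020788 in WT replicate 1). Both ref6 libraries held that peak as well, with scores of 112 and 132, against 342 and 287 in WT, and had separate peaks over the bodies of DREB1A and CBF1. In brm ref6 the bodies were covered likewise, and the peak between them had a score of 91.9 in replicate 1 and was not listed in replicate 2. The body of CBF2 was not covered in any library. Small H3K27me3 peaks within 1000 bp of it were listed in both brm ref6 libraries, with scores of 51.2 and 61.6. CBF4, the drought-responsive member on chromosome 5, was covered over 20.8% in brm ref6 replicate 1 and 0% in the other 7 libraries.

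**Figure D5:**
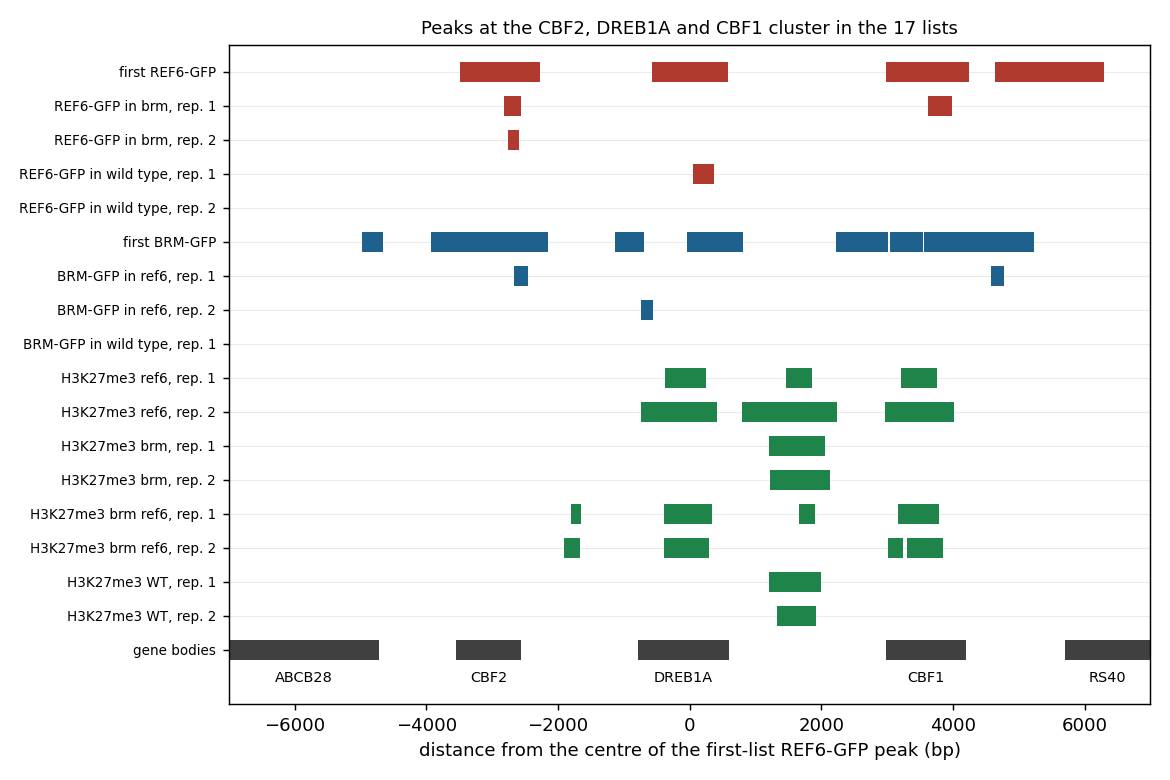
Peaks of the 17 lists over the CBF2, DREB1A and CBF1 cluster (one line per library, REF6-GFP red, BRM-GFP blue, H3K27me3 green) and gene bodies (dark), by distance in bp from the centre of the first-list REF6-GFP peak on DREB1A. The WT and brm libraries have 1 H3K27me3 peak, between DREB1A and CBF1, and the ref6 and brm ref6 libraries have peaks on both gene bodies.

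By the call rule, marked in both libraries of one genotype and in neither of the other, ERF1 was gained in ref6 (1 of 52, background 1.3%) and no gene was lost (background 0.375%). With marked set at 80% of the body, ERF1 was not called. DREB1A and CBF1 missed it because replicate 1 stayed under 50%. Without ref6 replicate 1 the rule gave 3 gained genes, and without ref6 replicate 2 it gave 1 lost gene, ERF12.

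H3K27me3 in brm was set against WT for the same question about BRM, and another gene stood out. Both brm lists covered more of the genome (10.9 and 10.3 Mb) than the WT lists (7.81 and 6.99 Mb). Whether rises at single genes go beyond this difference was not tested. ERF10 (AT1G03800), an EAR-motif repressor with BRM-GFP (score 219) and without REF6-GFP in the first lists, was covered over 78.1% and 57.3% in brm, against 0% and 13.1% in WT. The means were 67.7% ± 14.7 in brm and 6.56% ± 9.28 in WT (SD, n = 2 each), and the groups did not overlap. Limma gave 61.2 points (SE 8.78, adjusted p = 0.0905), short of the threshold. None of the 9 genes tested passed (3 had an unadjusted p under 0.05, and 563 of all 6263 genes did), where 0.335% of all genes tested were higher and 0.016% lower. By the call rule ERF10 was gained (1 of 52, background 1.44%) and none was lost (background 0.051%); without brm replicate 2 ERF110 was called gained as well, and ERF10 was not called with peaks of a score of at least 100 or with marked set at 80% of the body.

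ERF10 had H3K27me3 next to it in WT too. Peaks beside the gene body were listed in both WT libraries (chr1:958627-959376 in replicate 1), in brm replicate 1, in both ref6 and in both brm ref6 libraries. The peaks that made up the gain lay on the body (chr1:957071-957938 in brm replicate 1). Rap2.6L, a group X gene involved in shoot regeneration, was covered over 32.8% and 47.7% in brm, against 14.7% and 5.84% in WT (SE of the difference 7.84 points, limma adjusted p = 0.285). DREB26, a DREB-type gene, was covered over 32.5% and 12.5% in brm, against 0% in both WT libraries (22.5 points, SE 7.19, adjusted p = 0.400 by limma). For both genes each brm value lay above each WT value, and in ref6 both had 0% in both libraries. ERF38 was covered over 25.8% in brm replicate 1 and CRF9 over 17.5% in the same library, with 0% in brm replicate 2 and in WT.

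In brm ref6 the mark covered ERF1 more fully than in any other genotype. ERF1 was covered over 93.6% and 98.7% in brm ref6, against 0% in both brm and both WT libraries, and it rose by 96.2 points (SE 5.43; limma, adjusted p = 0.00220 against WT and 0.00212 against brm). It was the family's only call among the 9 genes tested in each comparison. Over all genes tested, 3.42% were higher and 0.543% lower against WT, and 3.61% and 2.52% against brm. CBF1 (52.2% and 62.5%) and DREB1A (52.1% and 49.96%) stood above 0% in both brm and both WT libraries. The differences were 57.3 points for CBF1 (adjusted p = 0.111 against WT and 0.0850 against brm) and 51.0 points for DREB1A (0.119 and 0.0890). Neither passed in the fit over all 4 genotypes. Both passed when only the 2 genotypes compared entered the fit (0.0421 and 0.0461 for CBF1, 0.0211 and 0.0210 for DREB1A) and on the arcsine square root scale, and in no other alternative. With peaks of a score of at least 100 the CBF1 difference was 26.1 points in both comparisons (adjusted p = 0.740 and 0.584).

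ERF10 stood at 20.7% and 28.1% in brm ref6, against 78.1% and 57.3% in brm, a difference of −43.4 points (SE 8.78; limma, adjusted p = 0.0575). Rap2.6L stood at 14.0% and 0% in brm ref6, against 32.8% and 47.7% in brm (−33.3 points, SE 7.84, adjusted p = 0.0828). DREB26 had 0% in both brm ref6 libraries. The values of these 3 genes did not overlap between brm ref6 and brm, and none passed. With peaks of a score of at least 100, Rap2.6L fell by 29.9 points and passed (adjusted p = 0.0373). Whether the effect of brm differs with and without REF6 was tested as an interaction in limma, added after the values had been seen. It gave −36.8 points for ERF10 (SE 12.4, adjusted p = 0.861), and none of the 9 family genes passed, where 4 of 6263 genes did; 1 and 315 had an unadjusted p under 0.05.

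ERF110, a group X gene, was the family's gene with REF6-GFP and without BRM-GFP (score 106 in the first list). It was covered over 86.7% and 46.0% in brm ref6, 36.0% and 31.7% in ref6 and 52.4% and 11.6% in brm, against 0% in both WT libraries. Every mutant library lay above every WT library, and no comparison passed (brm ref6 against WT, 66.3 points, SE 18.4, limma adjusted p = 0.150). Both WT libraries had an H3K27me3 peak beside the gene body (chr5:20367598-20368428 in WT replicate 1).

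Against ref6, no family gene passed limma's test in brm ref6 (0 of 9, with 2 at an unadjusted p under 0.05; 0.0319% of all genes tested were higher and 0.016% lower, and 280 of 6263 had an unadjusted p under 0.05). ERF1 differed by 19.2 points (SE 5.43, adjusted p = 0.730), with 93.6% and 98.7% in brm ref6, against 71.0% and 83.0% in ref6. Without ref6 replicate 2 this difference was 25.2 points (adjusted p = 0.0441) and that of DREB1A 6.15 points (adjusted p = 0.268), while without ref6 replicate 1 they were 13.2 points (0.128) and −32.0 points (0.0114). Each of these fits leaves ref6 as a lone sample whose spread comes from the other genotypes, and the direction at DREB1A depended on which ref6 library was kept. By the call rule, CBF1 and ERF1 were gained in brm ref6 against WT (2 of 52, background 1.81%) and none was lost (background 0.627%). DREB1A missed the rule with 49.96% in brm ref6 replicate 2. The same genes were gained against brm (background 1.26%), where ERF10 was lost (1 of 52, background 1.61%). With peaks of a score of at least 100 or with marked set at 80%, CBF1 was not called gained in either comparison and ERF10 was not called lost. Against ref6 none was gained or lost (background 0.171% and 0.0729%). Without brm ref6 replicate 2, 4 genes were gained against WT and 1 against ref6, and without ref6 replicate 2, 2 were gained against ref6.

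The genes with coverage in ref6 and those with coverage in brm were set against REF6-GFP occupancy. Any coverage in both ref6 libraries with none in WT was seen at 4 of the 24 genes with first-list REF6-GFP (CBF1, DREB1A, ERF1 and ERF110), against 6.4% of all genes with a REF6-GFP peak. It was seen at 0 of the 28 genes without REF6-GFP, against 1.09% of all such genes. The same 4 genes showed it in brm ref6 (background 8.26% with and 1.76% without REF6-GFP). Both brm libraries above both WT libraries was seen at 1 of the 24 genes with REF6-GFP (ERF110, background 5.04%) and at 3 of the 28 without (DREB26, ERF10 and Rap2.6L, background 11.7%). These are counts of single genes and were not tested.

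The other 20 of the 24 genes with REF6-GFP did not have body coverage in both ref6 libraries, ERF53 (REF6-GFP score 2340), CRF6 and CRF5 among them. ERF53 was covered over 14.4% in brm ref6 replicate 1 and 0% elsewhere. ERF71 lay beside a wide H3K27me3 domain that was listed in all 4 genotypes. The domain reached the gene body in ref6 replicate 2 (25.1%) and brm ref6 replicate 1 (11.2%) and stopped short of it in the other 6 libraries. At ERF9 the REF6-GFP peak lay beside the gene body in all 5 REF6-GFP lists (chr5:17805208-17806285 in the first). An H3K27me3 peak was listed at that place in both brm ref6 libraries (chr5:17805431-17805761 in replicate 1, score 175, and chr5:17805379-17805661 in replicate 2, score 139), and none within 1000 bp of the gene in the other 6. ERF104, with REF6-GFP and a BRM-GFP score of 1624, had an H3K27me3 peak within 1000 bp in all 8 libraries (scores from 79.7 to 764) and no coverage of its body in any.

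Genes around the family in its pathways were read from lists matched by symbol. Over all protein-coding genes, the first lists had BRM-GFP at 44.1% and REF6-GFP at 30.1%. Marked genes made up 10.6% of all genes in WT replicate 1 and 9.5% in WT replicate 2. Of 18 genes of ethylene synthesis and signalling, 12 had BRM-GFP and 3 REF6-GFP in the first lists, and 3 of the ACC synthase genes, which make the precursor of ethylene, were marked in both WT libraries (ACS4, ACS5 and ACS8). None of the 18 was called gained or lost for H3K27me3, where the background ran from 0.051% to 1.81% over the 5 comparisons. Of 14 regulators and targets of the cold and drought response, 12 had BRM-GFP and 4 REF6-GFP. RD29B (listed as LTI65), a drought-induced gene, was covered over 65.1% and 83.4% in ref6, against 16.7% and 0% in WT. It was called gained (background 1.3%). COR15A, a cold-induced target of the CBF proteins, was covered over 66.0% and 62.8% in brm, against 32.5% and 31.1% in WT. It was called gained (background 1.44%). Of 5 defence genes, 2 had BRM-GFP, none had REF6-GFP, and PDF1.2, a target of ERF1 with close copies in the genome, was marked in both WT libraries (70.3% and 77.0%).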

How the data were processed

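The data were ChIP-seq peak lists of 17 seedling libraries, 9 for GFP and 8 for H3K27me3. The series also has 10 input samples, which were not used. Per the submitters' processing notes, the build was TAIR10, and Bowtie2 2.2.5 and MACS 1.4 were the tools. For the calling options and the control, nothing is stated in the labels used here. Each list deposited by the authors gives a peak's position and its score, −10 times the base-10 logarithm of the p-value, with a minimum of 50 (p = 1e-05). The lists carry no read depth, and a missing peak may be one that fell below the minimum.

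Gene bodies and symbols came from the RefSeq gene table of TAIR10.1, which gives no strand. Shifting the pooled GFP peaks against the genes by 1000 bp or 3000 bp gave a lower share of peak centres in gene bodies. This held in 10 of 10 chromosome parts (46.4% to 71.3% without a shift). H3K27me3 peaks did not enter this check. The printed positions belong to peaks and are 1-based. No peak was identical between lists.

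The percent of each gene body covered by H3K27me3 peaks was fitted with limma 3.58.1 (R 4.3.3) over all 8 libraries as 4 genotypes, for 6263 protein-coding genes with a mean coverage of at least 5%. Tests were two-sided with Benjamini-Hochberg adjustment over these genes in each of 5 comparisons, at a threshold of 0.05. The code was tested on simulated data. Calls of gained, lost and kept genes read every library and have no test.

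The members, roles, pathway lists and settings were chosen with earlier results of these data known. Named were all genes called in any comparison or marked in both WT libraries, the 5 highest scores of each first list, all genes kept, gained or lost in the GFP comparisons, and the 4 CBF/DREB1 genes. Genes named for a neighbouring peak, for a pattern below the thresholds, or from the pathway lists, and the split by REF6-GFP occupancy, were added after their values had been seen. The lists covered ethylene, cold and drought, defence and other AP2/ERF genes. Alternatives were the arcsine square root scale, no coverage filter, the 2 compared genotypes alone, a score of at least 100, a trended spread, a replicate block, marked at 80% or with any overlap, the gene body or 3000 bp as territory, a GFP peak with 50% or more of its length in the territory, and leaving out each library. Plots were drawn with matplotlib 3.10.9.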

Additional observations from a re-analysis of the deposited data

How the results depend on the processing

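The rise of H3K27me3 at ERF1 in ref6 against WT passed in every alternative except with the 2 genotypes alone (adjusted p = 0.116) and without either WT library (0.0683 and 0.0594), and its direction was the same in all. In brm ref6 against WT and against brm it passed in every alternative run. Family genes passing limma numbered 3 (ref6 against WT), 3 (brm ref6 against WT) and 3 (brm ref6 against brm) on the arcsine square root scale, and 0, 3 and 3 with the 2 genotypes alone, against 1, 1 and 1 as reported. With peaks of a score of at least 100, 2 passed for brm ref6 against brm (ERF1 and Rap2.6L). The cause of these changes was not tested.

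With genes marked at 80% of the body, the gained genes were 0 for ref6 against WT, 0 for brm against WT, 1 for brm ref6 against WT and 1 for brm ref6 against brm, where 0 were lost. With any overlap, 4, 2 and 4 genes were gained in ref6, brm and brm ref6 against WT, 1 was lost in ref6 and 1 was gained in brm ref6 against ref6. With a score of at least 100, 0 were gained in brm and 1 in brm ref6 against WT, and 1 was gained and 0 were lost in brm ref6 against brm. At that score REF6-GFP was kept at 2 and gained at 0 genes in brm, and BRM-GFP was kept at 0 and lost at 0 in ref6. With territories of 3000 bp, 0 genes gained REF6-GFP in brm, BRM-GFP was kept at 4 and gained at 5 in ref6, and 4 genes had neither protein in the first lists. With the gene body alone, BRM-GFP was kept at 1.

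Leaving out each library in turn, the family genes passing limma ranged from 0 to 3 for ref6 against WT and from 0 to 1 for brm ref6 against ref6. Called genes ranged from 1 to 3 gained and 0 to 1 lost in ref6 against WT, from 1 to 2 gained in brm, from 2 to 4 gained in brm ref6 against WT and from 0 to 2 gained in brm ref6 against ref6. For REF6-GFP in brm, gained genes ranged from 1 to 4 and lost genes from 0 to 3. For BRM-GFP in ref6, 2 to 5 were kept, 6 to 8 gained and 2 to 5 lost. With fewer libraries the rules for gained, lost and kept are easier to meet.

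Whether the replicate numbers pair the libraries was not settled. Correlations of replicate differences were 0.147 (brm and WT), 0.167 (brm ref6 and WT) and 0.251 (brm ref6 and brm), but −0.211 (ref6 and WT), −0.23 (ref6 and brm) and −0.484 (brm ref6 and ref6). The labels name no shared batch, and 2 pairs are too few to decide. A replicate block left the family counts at 1 for ref6, 0 for brm and 1 for brm ref6 against WT, 1 for brm ref6 against brm and 0 for brm ref6 against ref6. Over all genes the block gave 63 higher and 9 lower for ref6 against WT (166 and 42 without it), 0 and 0 for brm against WT (21 and 1), 47 and 2 for brm ref6 against WT (214 and 34), 59 and 30 for brm ref6 against brm (226 and 158) and 0 and 0 for brm ref6 against ref6 (2 and 1). With the ref6 numbers crossed, an alternative chosen after seeing the data, the block gave 188 and 28 for ref6 against WT, 4 and 0 for brm against WT, 219 and 23 for brm ref6 against WT, 208 and 121 for brm ref6 against brm and 0 and 1 for brm ref6 against ref6, and the family counts were again 1, 0, 1, 1 and 0. Over all genes, ref6 against WT gave 274 higher and 102 lower on the arcsine square root scale and 0 with the 2 genotypes alone (771 of 5735 at an unadjusted p under 0.05). For brm against WT, 44 and 5 were called on that scale, 33 and 1 with no filter on coverage, 62 and 4 with the 2 genotypes alone and 79 and 4 with a score of at least 100. For brm ref6 against ref6, 0 and 1 were called on that scale, 4 and 1 with no filter, 0 with the 2 genotypes alone (143 of 5876 at an unadjusted p under 0.05), 8 and 2 with a score of at least 100 and 0 and 1 with a trended spread. Read depth was not known, so no limit of detection can be given.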

Other observations

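Other genes of the AP2/ERF family, outside the symbol rule and matched by name, included many under H3K27me3. Of 29 such genes, a list picked by name and rich in developmental regulators, 9 were marked in both WT libraries. Of the 52 ERF, DREB and CBF genes 2 were. Over all protein-coding genes, 10.6% were marked in WT replicate 1 and 9.5% in WT replicate 2. The 9 covered in this way were developmental regulators for the most part, among them the root and embryo genes PLT1, PLT2 and BBM, the shoot genes ESR1, DRNL and PUCHI, the cuticle genes SHN2 and SHN3, and ABI4, an abscisic acid response gene. ESR1 had 58.3% and 100% in ref6 and 100% in both WT libraries. TINY (listed as tny) was covered over 67.3% and 73.4% in brm, against 48.9% and 23.1% in WT. In the first lists, 15 of the 29 carried BRM-GFP (background 44.1%), 11 REF6-GFP (30.1%) and 8 both (16.9%). These lists were chosen with earlier results known and the shares were not tested against each other.

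DDF1 and DDF2 (listed as ddf2), close relatives of the CBF genes that lie elsewhere in the genome, had H3K27me3 in ref6 and not in WT. DDF2 was covered over 67.5% and 95.2% in ref6 and 76.7% and 66.1% in brm ref6, against 0% in both WT libraries, and it had a REF6-GFP score of 1370 in the first list and no BRM-GFP peak there. DDF1 was covered over 19.0% and 71.3% in ref6 and 44.7% and 0% in brm ref6, against 0% in both WT libraries, and it had a REF6-GFP score of 2385. Both brm libraries had 0% at both genes. RD29B was covered over 74.4% and 79.7% in brm ref6 and 0% and 6.93% in brm, and a first-list REF6-GFP score of 3100 was listed at it and at its neighbour COR78. COR78 (listed as LTI78) kept REF6-GFP in all later lists and was covered over 17.4% and 5.98% in brm ref6 and 0% in the other 6 libraries. TOE2, an AP2-type flowering repressor, had a REF6-GFP score of 3100 in the first list and no H3K27me3 over its body in any of the 8 lists.

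ERF-1 (ERF1A), which the symbol rule missed, had a BRM-GFP score of 1236 in the first list, 122 in ref6 replicate 2, no REF6-GFP peak and no H3K27me3 coverage in any library.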
